A study of Mus musculus with 12 samples.

Results

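Gene expression in the ischemic kidneys of mice without Toll-like receptor 4 (TLR4) was compared with that in the ischemic kidneys of wild type mice, on the 6 arrays of 12 whose titles name a TLR4 null ischemic kidney (3 arrays) or a B10 ischemic kidney (3 arrays). All animals were 8-week-old males bought from the Jackson Laboratory. Wild type mice were C57BL/10, and TLR4 null mice were of the substrain C57BL/10ScNJ, labelled TLR4-/-. Under isoflurane every animal lost its right kidney, the vessels of the left kidney were then clamped for 23 min, and the left kidney was taken after 4 h of reperfusion with buprenorphine given at clip release. The other 6 arrays were of sham kidneys, 3 of each genotype, from animals that had the same nephrectomy with the clip laid under the vessels without closing it. The comparison asks which transcripts depend on genotype in the injured kidney. The mutants are a separate substrain and not littermates, so the loss of TLR4 and any other difference between the substrains cannot be told apart. RNA came from whole kidney, in which fewer cells of a type and less RNA per cell cannot be told apart either.

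TLR4 is the cell-surface receptor for bacterial lipopolysaccharide, which it binds with the co-receptor MD-2 (Ly96) after transfer by LBP and CD14. It also responds to molecules proposed to leak from injured tissue, and it signals through MYD88 to NF-kB and inflammatory cytokines and through TRIF (Ticam1) to interferon regulatory factors and type I interferon. In the kidney it is found on leukocytes, endothelium and tubular cells, and mice without it have been used to study inflammation after ischemia and reperfusion.

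The Tlr4 transcript was measured first. One of the Tlr4 probe sets, 1418162_at, read signals of 96.4, 95.3 and 120.4 in the wild type ischemic kidneys and 1.67, 0.901 and 3.13 in the TLR4 null ones. The groups did not overlap, and the mutant signals lay near the bottom of the array's range. The difference was -2.81 ± 0.32 (SE) on the scale of log2(signal + 15), which understates the change of a transcript this low (limma, Benjamini-Hochberg adjusted p = 0.00218, 3 arrays per group). A second probe set, 1418163_at, read 73.6, 95.6 and 134.8 in wild type and 44.1, 11.7 and 60.4 in TLR4 null kidneys, and its difference of -1.21 ± 0.44 did not pass the test (limma adjusted p = 0.333). Which parts of the gene the probe sets read relative to the mutation was not analysed here. The remaining Tlr4 probe sets, 1430695_at and 1442827_at, stayed at or under 41.4 on all 12 arrays and were too low to test. The 10 tested genes with a full name nearest to Tlr4 on its chromosome, 5 on each side and among them the matrix protein gene Tnc and the cytokine gene Tnfsf8, differed by -0.59 to 0.38 on the log2 scale, and 0 of them passed the test.

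Arrays of one group correlated with each other at r = 0.956 to 0.972 over all tested probe sets, and ischemic arrays of different genotype at 0.956 to 0.967. TLR4 null ischemic replicate 3 correlated least with the others of its group (0.956 and 0.960). A control probe set for the 3 prime part of 18S ribosomal RNA read 2287, 2646 and 1410 in the TLR4 null ischemic kidneys, 534.6 to 574.1 in the wild type ischemic kidneys and 303.7 to 476.5 in the sham kidneys. Its part in the results was not tested. Each array is titled as a biological replicate, and the p-values measure the spread between arrays titled so.

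Of 30326 probe sets tested, 123 differed between the ischemic kidneys of the genotypes (limma adjusted p under 0.05), which is 0.406% of those tested. In the TLR4 null kidneys 97 were lower (0.32%) and 26 were higher (0.0857%), and the median difference of all tested probe sets was 0.01. The sizes ran from 0.45 to 3.87 on the log2 scale with a median of 0.87. Fold differences, here and below, were taken from the differences of log2(signal + 15), which understates changes at low signal. At least a 2-fold difference was reached by 35 of the lower and 9 of the higher probe sets. The 123 probe sets stand for 90 named genes, 70 lower and 20 higher, while 8 probe sets carry several gene names and 12 carry none. In each of the 123 the 3 values of one genotype lay wholly outside the 3 of the other, as they did for 13.8% of all tested probe sets. The count rests strongly on single arrays. Without wild type ischemic replicate 3 it was 17 and without TLR4 null ischemic replicate 3 it was 367, while leaving out wild type ischemic replicate 1 or 2 gave 64 or 69, TLR4 null ischemic replicate 1 or 2 gave 62 or 75, and wild type sham replicate 1 gave 68. Every one of the 123 that could be tested kept its direction in all 12 of these fits, which values that do not overlap fix in advance. Of the 123, 14 were called in all 12. Under the other settings tried, 15 of the 123 were still called by eBayes without its trend on the mean signal and 20 from the 6 ischemic arrays alone, and 9 were called in all 12 fits and under every other setting fitted per probe set. The named genes among those 14 were Tlr4, Ctse, Mki67, Col3a1, Sparc, Tmsb10 and Mgp, which were lower, and Erdr1, Arf5 and Aadat, which were higher.

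**Figure D1:**
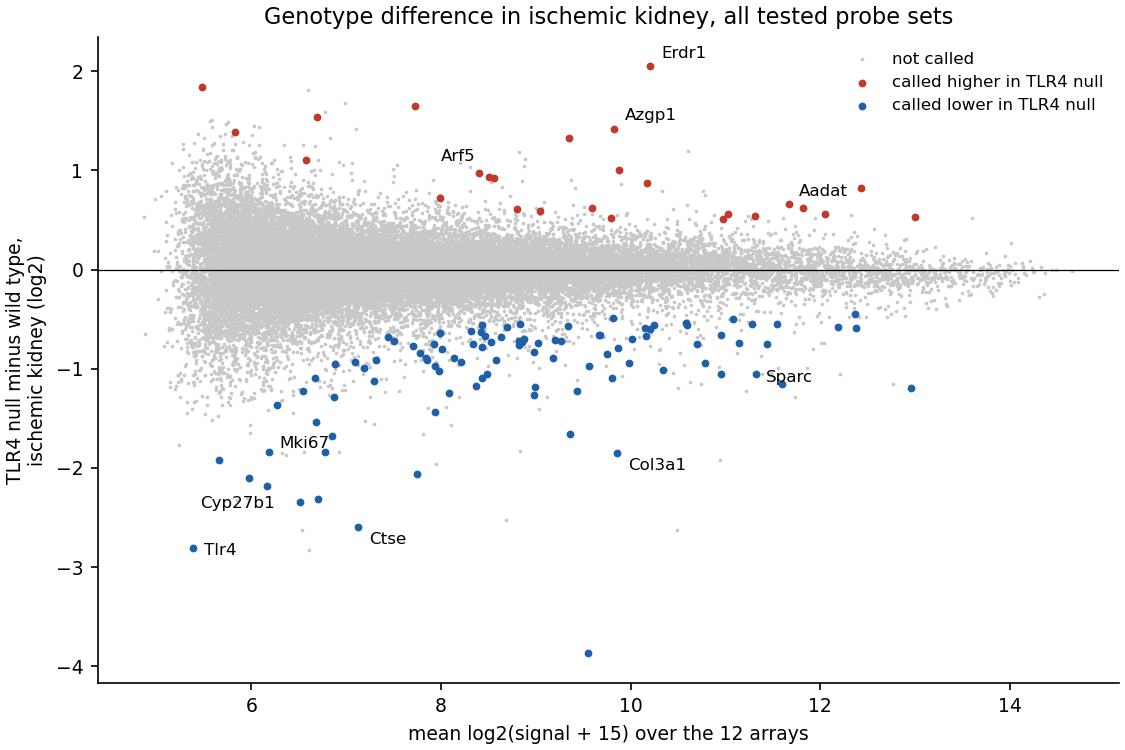
Log2 difference between TLR4 null and wild type ischemic kidneys (vertical axis) against the mean log2(signal + 15) over 12 arrays (horizontal axis) for the 30326 tested probe sets. The 97 probe sets called lower (blue) reach further from 0 than the 26 called higher (red), and the point near -3.87 is an unnamed probe set.

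The most numerous group among the lower genes was the extracellular matrix. Of 19 measured genes on a list of collagens and other matrix proteins, 10 were lower in the TLR4 null ischemic kidneys and 0 were higher, the median difference was -0.75, and 18 had a lower mean. Over 14322 genes taken at their brightest probe set, 0.405% were lower, 0.105% were higher and the median was 0.01. The fibrillar collagen gene Col3a1 read 1544, 1198 and 2319 in wild type and 522.1, 309.2 and 522.6 in TLR4 null ischemic kidneys. All 3 mutant kidneys lay far under the lowest wild type kidney, a 3.61-fold difference (-1.85 ± 0.23, limma adjusted p = 0.00256), and a second Col3a1 probe set was lower as well (-1.22). Sparc, a collagen-binding matricellular protein, read 3577, 3325 and 4154 against 2177, 1784 and 1400. The mutant kidneys again lay below every wild type kidney, and 2 of the 3 tested Sparc probe sets gave a difference of -1.05 (limma adjusted p = 0.00486 and 0.0075). The third read 0.18 and did not pass.

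Basement membrane genes were among the 10. Nid1, which links laminin to type IV collagen, read 1256, 1202 and 1663 in wild type and 681.9, 726.3 and 506.5 in TLR4 null kidneys (-1.09 ± 0.17, limma adjusted p = 0.0126). The type IV collagen chains Col4a1 (-0.75) and Col4a2 (-0.56) and the type VI chains Col6a2 (-0.89) and Col6a3 (-0.63) were lower, as were Col5a2 (-0.72), Col1a1 (-1.84) and Col1a2 (-0.94). The lower matrix genes were not confined to the injured kidney. Of the 10, Sparc, Col4a1, Col4a2 and Col6a3 were called lower in sham kidneys too at their brightest probe sets. Col1a2 was called in both surgeries only at its dimmer probe set (-0.97 in ischemic and -0.98 in sham kidneys). At its brighter probe set the sham difference of -0.52 did not pass (limma adjusted p = 0.42). The rest were not called in both surgeries. Among the rest, Col1a1 differed by -1.83 in sham kidneys (limma adjusted p = 0.0569). A change of the genotype difference with surgery passed the test at 0 probe sets, so these falls are not shown to depend on ischemia. Col1a1, the chain that dominates fibrous collagen, read 212.2, 129.1 and 292.7 in wild type and 80.7, 26.5 and 39.8 in TLR4 null kidneys, and it was called in 7 of the 12 fits that leave out an array. It has several probe sets, and none of the others pointed the same way at an unadjusted p under 0.05; the same holds for Col4a1. Outside the list, and chosen after their values were seen, Mgp, an inhibitor of calcification, read 2044, 2067 and 2056 against 1400, 1179 and 1321 (-0.66 ± 0.08, limma adjusted p = 0.00247). The wild type kidneys were almost identical to each other, and all 3 mutant kidneys were lower. Also called lower outside the list, and picked the same way, were the metalloproteinase inhibitor Timp2 (-0.71), the matrix protein Tgfbi (-0.66), the elastic fiber protein Fbln5 (-0.85) and the proteoglycan Bgn (-0.59). Of these Timp2 was called in 10 of the 12 fits without 1 array, Tgfbi in 11, and Fbln5 and Bgn in 2 each.

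Markers of other cells are set beside these values. The list of 8 measured fibroblast and pericyte markers shares Col1a1 and Col1a2 with the matrix list. They were its only members called, while Pdgfra (-0.42), Pdgfrb (-0.33), Dcn (-0.56), Lum (-0.29), Rgs5 (-0.16) and Cspg4 (0.21) did not pass. The list's median was -0.38 and 7 of the 8 means were lower. All 7 measured fat markers had lower means in the TLR4 null ischemic kidneys (median -1.10), and 0 passed the test. The fat score, the mean log2(signal + 15) of the list, was 10.1, 7.89 and 10.2 in the wild type kidneys and 9.8, 7.05 and 8.06 in the TLR4 null kidneys, so the groups overlapped (exact permutation test, two-sided, p = 0.3, 0.55 after adjustment over 11 array measures, the smallest p possible being 0.1). With the fat score as a covariate, an alternative added after the data were seen, 5 of the 19 matrix genes were called lower and their median was -0.60. Without wild type ischemic replicate 3 the number was 2, without wild type ischemic replicate 1 or TLR4 null ischemic replicate 2 it was 5, without wild type sham replicate 1 or TLR4 null sham replicate 3 it was 6, and without any other array it was 7 to 9.

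**Figure D2:**
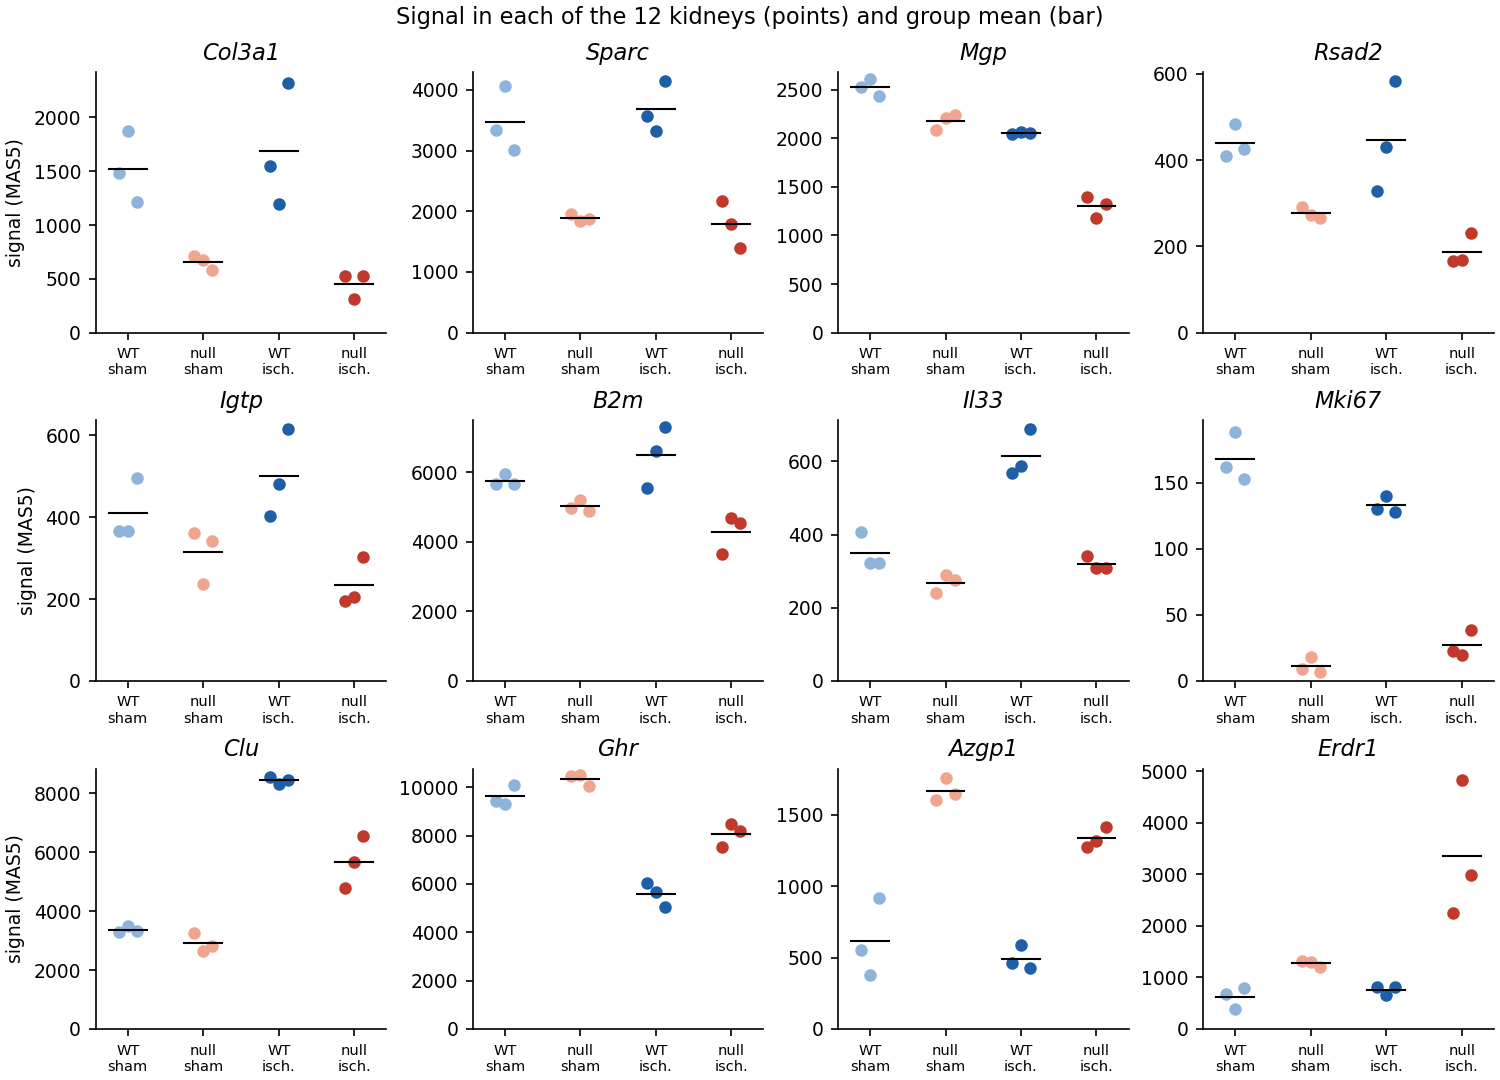
Signal of 12 genes (vertical axes, each starting at 0) in the 4 groups, with 1 point per kidney and a bar at the mean of 3 kidneys. Wild type and TLR4 null ischemic kidneys are apart in every panel. The sham kidneys of the genotypes are apart as well in every panel but that of Ghr, though only just for Clu and Igtp.

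Interferon-induced genes were a second group among the lower genes. Genes induced by interferon often carry an interferon-stimulated response element in the promoter. Promoters of 3 genes that were lower in the TLR4 null ischemic kidneys are shown here because each holds the core of that element, GAAANNGAAA, searched on both strands. Each sequence is the 150 bases before the gene's start on the gene's own strand, from RefSeq on build GRCm38.p6, with the match in capitals. They lie at chr12:26456453-26456602 (minus strand) for Rsad2, chr11:58199406-58199555 (plus strand) for Igtp and chr2:122147537-122147686 (plus strand) for B2m, and the match begins 120, 34 and 139 bases before the start.
Rsad2: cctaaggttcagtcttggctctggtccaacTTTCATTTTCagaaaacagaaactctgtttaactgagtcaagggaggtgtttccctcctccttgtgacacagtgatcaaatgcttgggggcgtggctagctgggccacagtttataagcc
Igtp: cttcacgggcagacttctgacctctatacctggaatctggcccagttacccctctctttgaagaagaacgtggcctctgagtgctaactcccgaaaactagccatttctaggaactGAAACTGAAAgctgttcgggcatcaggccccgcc
B2m: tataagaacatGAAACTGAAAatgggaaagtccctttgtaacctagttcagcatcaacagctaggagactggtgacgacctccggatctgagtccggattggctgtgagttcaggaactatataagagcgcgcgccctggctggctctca
In Rsad2 the match is on the other strand. Over the 300 bases from 250 before to 50 after the start, the motif was present in 3.44% of 32851 promoters and in a promoter of 3.99% of 27025 genes. Of the 70 named genes called lower, 50 had a promoter in the table and 9 of them (18%) held the motif: B2m, Fbln5, Igtp, Lgals9, Mndal, Rsad2, Smc2, Srgn and Tgfbi. Oasl2, Xaf1, Iigp1 and Gbp6, described below, are not among the 9, and Gbp6 had no promoter in the table. Of the 20 called higher, 16 had a promoter and 0 held it. The motif was chosen after the calls were seen, and a match describes these letters only.

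Rsad2, which encodes the antiviral protein viperin, read 329.1, 430.6 and 582.7 in wild type and 165.2, 168.0 and 230.5 in TLR4 null ischemic kidneys on the probe set with the smaller p. Every mutant kidney lay below every wild type kidney, a 2.25-fold difference (-1.17 ± 0.18, limma adjusted p = 0.0112), and the second Rsad2 probe set gave -1.22 ± 0.22. Igtp, an interferon-induced GTPase, was picked after its values were seen and read 402.1, 481.2 and 615.7 against 194.3, 206.1 and 303.1 (-1.05 ± 0.20, limma adjusted p = 0.0409). The highest mutant kidney was still under the lowest wild type kidney. Oasl2, a relative of the oligoadenylate synthetases, read 176.5, 173.6 and 236.7 against 83.2, 82.4 and 106.2 (-0.99 ± 0.20, limma adjusted p = 0.0439). Further interferon-induced GTPases were lower, Gbp6 by a difference of -2.18 and Iigp1 by -1.66, and so were Mndal (-1.18) and Xaf1 (-1.02), which were named after their values were seen. Leaving out 1 array at a time, Gbp6 was called in 9 of 12 fits, Iigp1 in 4, Mndal in 10 and Xaf1 in 3.

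On a list of 17 measured interferon-stimulated genes, Rsad2 and Oasl2 were the 2 called lower, 0 were called higher, and all 17 had a lower mean in the TLR4 null kidneys, with a median difference of -0.53. Among members that did not pass were Gbp2 (-1.40, limma adjusted p = 0.0762), Usp18 (-0.77), Irf7 (-0.64) and Irf9 (-0.53). The summed level of the list, as mean log2(signal + 15), was 7.96 to 8.51 in the 3 wild type and 7.40 to 7.72 in the 3 TLR4 null ischemic kidneys. In the sham kidneys 0 of the 17 passed and the median was -0.39. The calls were not stable to single arrays. At its brightest probe set, which the list uses, Rsad2 was called in 9 of the 12 fits without 1 array. At the probe set with the smaller p it was called in 11, and Igtp was called in 6 and Oasl2 in 4. Without wild type ischemic replicate 3, TLR4 null ischemic replicate 1 or TLR4 null ischemic replicate 2, 0 of the 17 were called, with medians of -0.42, -0.41 and -0.55. Without any other array 1 to 3 were called, and with the fat score as a covariate 0 were called and the median was -0.51.

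Among antigen presentation genes, many of which interferon induces, the called differences were smaller. B2m, the light chain of class I molecules, read 5554, 6618 and 7314 in wild type and 3652, 4693 and 4540 in TLR4 null ischemic kidneys. The groups were apart by a 1.51-fold difference (-0.59 ± 0.11, limma adjusted p = 0.0262), and a second probe set gave -0.45. It was called in 9 of the 12 fits without 1 array and also with the fat score as a covariate. Of 15 measured genes on the list, B2m was called at its brightest probe set and the class I heavy chain H2-K1 at another of its probe sets (-0.50). The list's median was -0.41, and 14 of 15 means were lower. The class II gene H2-Ab1 (-0.53, limma adjusted p = 0.0601) and the immunoproteasome subunit Psmb8 (-0.94, limma adjusted p = 0.0719) did not pass.

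In the complement list 3 of 13 measured genes were lower and 0 were higher (median -0.30). Serping1, the inhibitor of C1, read 1136, 978.3 and 1409 in wild type and 708.4, 714.3 and 699.3 in TLR4 null ischemic kidneys (-0.70 ± 0.12, limma adjusted p = 0.0175). C1s1, the protease of the C1 complex, read 211.1, 274.8 and 320.1 against 145.2, 146.4 and 113.5 (-0.91 ± 0.16, limma adjusted p = 0.0206). C1qa, a chain of its recognition subunit, gave -0.64 ± 0.13 (limma adjusted p = 0.0439). For each of the 3 the mutant kidneys were all below the wild type kidneys. In sham kidneys their differences were -0.24, -0.21 and -0.20, and none passed. Without wild type ischemic replicate 3, or with the fat score as a covariate, 0 of the 13 were called, and without any other array 1 to 3 were. Over the 12 fits without 1 array, Serping1 was called in 9, C1s1 in 10 and C1qa in 2.

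C1qa is also a macrophage gene and was the only one of 12 measured monocyte and macrophage markers called. The list's median was -0.31, 10 of the 12 means were lower, and the defining markers Adgre1 (-0.35), Csf1r (0.07) and Cd68 (-0.19) did not pass. The mean log2 level of the list was 7.61 to 7.82 in the wild type kidneys and 7.38 to 7.59 in the TLR4 null ones after ischemia (exact permutation test, two-sided, p = 0.1, the smallest 3 against 3 can give). The macrophage list lay apart in sham kidneys as well, at 7.78 to 7.81 for wild type and 7.38 to 7.55 for the mutants. The part of the macrophage level in the complement, interferon and antigen presentation results was not tested. Of 9 measured neutrophil markers 0 were called, 4 had a lower mean and the median was 0.11. The 5 with a higher mean had low signals, with ischemic group means of at most 122.9, as had Mmp9 among the lower ones. The list's median ran from -0.70 to 0.15 under other settings and from -0.22 to 0.25 without 1 array. S100a8, a subunit of calprotectin, read 422.3, 668.6 and 453.9 in wild type and 193.3, 298.6 and 296.6 in TLR4 null kidneys (-0.93 ± 0.21, limma adjusted p = 0.0736), and its partner S100a9 (-0.92), the collagenase Mmp8 (-0.48) and the granule genes Mpo (0.11) and Ltf (0.53) did not pass. Of 15 endothelial cell markers 0 were called, with Pecam1 at -0.21 and Kdr at -0.07. Their median was -0.21, and 13 of the 15 means were lower. The mean log2 level of the list was 8.46 to 8.68 in the wild type kidneys and 8.20 to 8.34 in the TLR4 null kidneys after ischemia. The mean level of the endothelial list was lower in the mutants in sham kidneys too.

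Upstream parts of the TLR4 pathway came next. Of 18 measured genes for the receptor complex and its adaptors, Tlr4 was the only one with a probe set that passed, and the list's median was -0.09. The co-receptor Cd14 read 539.2, 380.9 and 579.5 in wild type and 386.3, 397.6 and 469.6 in TLR4 null ischemic kidneys, and the ranges overlapped (-0.23, limma adjusted p = 0.672). Ly96 was at 0.15, the adaptors Myd88 at -0.09 and Ticam1 at 0.30, and the transfer protein Lbp at -0.96, and none passed. Of 14 other pattern receptors 0 were called, the double-stranded RNA sensor Ifih1 coming nearest (-0.91, limma adjusted p = 0.0545). Of 12 measured genes for proteins proposed as TLR4 ligands, all 12 had a lower mean (median -0.55). Fn1, fibronectin, was the 1 called at its brightest probe set (-0.74 ± 0.15, limma adjusted p = 0.0439, called in 3 of the 12 fits without 1 array), and Bgn was called at another of its probe sets.

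The inflammatory outputs of the pathway mostly did not pass the test. Of 19 measured chemokines 0 were called, and their median was -0.15. Cxcl1, a neutrophil attractant, read 3259, 3420 and 2592 in wild type and 2444, 3885 and 2232 in TLR4 null ischemic kidneys (-0.15 ± 0.25, limma adjusted p = 0.905). The mutant kidneys spanned the wild type values. Cxcl2 (-0.31) and the monocyte attractant Ccl2 (-0.51) did not pass either. The cytokine Il6 read 655.2, 1110 and 525.2 against 256.4, 737.0 and 356.2, and the groups overlapped (-0.81 ± 0.37, limma adjusted p = 0.476). Tnf was too low to test. Of 16 measured NF-kB subunits, inhibitors and targets 0 were called and the median was -0.08, with Nfkbia, which encodes the inhibitor IkB-alpha, at -0.20. These standard errors are wide enough that a difference of the size seen in the called genes could be missed.

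The cytokine list had 1 call among 15 measured genes. Il33, an alarmin of the interleukin-1 family, read 569.3, 586.8 and 689.5 in wild type and 342.2, 308.8 and 309.5 in TLR4 null ischemic kidneys. The genotypes were clearly apart, a 1.88-fold difference (-0.91 ± 0.12, limma adjusted p = 0.00537), and the call held in 11 of the 12 fits without 1 array. In sham kidneys Il33 read 405.7, 322.9 and 322.9 against 241.0, 289.0 and 274.7, a difference of -0.36 that did not pass, and the interaction of genotype with surgery did not pass (limma adjusted p = 0.626). Of 16 genes for endothelial activation and coagulation, Thbd, the thrombomodulin that restrains clotting, was the 1 called (-0.66 ± 0.13, limma adjusted p = 0.0439), in 3 of the 12 fits without 1 array. The adhesion molecules Icam1 (-0.34) and Vcam1 (-0.67) and the selectins Sele (0.06) and Selp (-0.04) did not pass.

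Genes of dividing cells were also among the lower genes. Mki67, the marker of dividing cells, read 130.3, 139.9 and 128.1 in wild type and 22.8, 19.4 and 38.6 in TLR4 null ischemic kidneys. There was a wide gap between the genotypes, a 3.59-fold difference (-1.84 ± 0.24, limma adjusted p = 0.00468). In the separate sham kidneys the gap was 161.5, 188.0 and 153.0 against 8.94, 18.1 and 6.82 (-2.81 ± 0.24, limma adjusted p = 0.000123). Top2a, the topoisomerase of replicating cells, read 170.6, 192.5 and 163.7 against 65.2, 71 and 54.9 in ischemic kidneys (-1.28 ± 0.22, limma adjusted p = 0.0206) and was also lower in sham kidneys (-1.48). It has other probe sets, and none of them was lower at an unadjusted p under 0.05.

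Those were the 2 genes called of 19 measured cell cycle genes, 17 of which had a lower mean (median -0.58). Cdk1, the mitotic kinase, read 119.9, 122.6 and 166.5 against 12.1, 31.9 and 39.1 and narrowly did not pass in ischemic kidneys (-1.87 ± 0.39, limma adjusted p = 0.0532). The ribonucleotide reductase subunit Rrm2 did not pass either (-0.96, limma adjusted p = 0.0578). In sham kidneys 6 of the 19 were lower, Cdk1 (-2.40) and Rrm2 (-1.38) among them, and the median was -0.47. Further genes of dividing cells outside the list were lower in ischemic kidneys, namely Shcbp1 (-1.92) and the condensin subunit Smc2 (-0.93), the second named after its values were seen. Leaving out 1 array gave 1 to 6 calls in the list, namely 1 without wild type ischemic replicate 1, 2 or 3 or TLR4 null ischemic replicate 1, 4 without wild type sham replicate 3, 6 without TLR4 null ischemic replicate 3, and 2 or 3 without any other array, and the fat score as a covariate left 2.

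**Figure D3:**
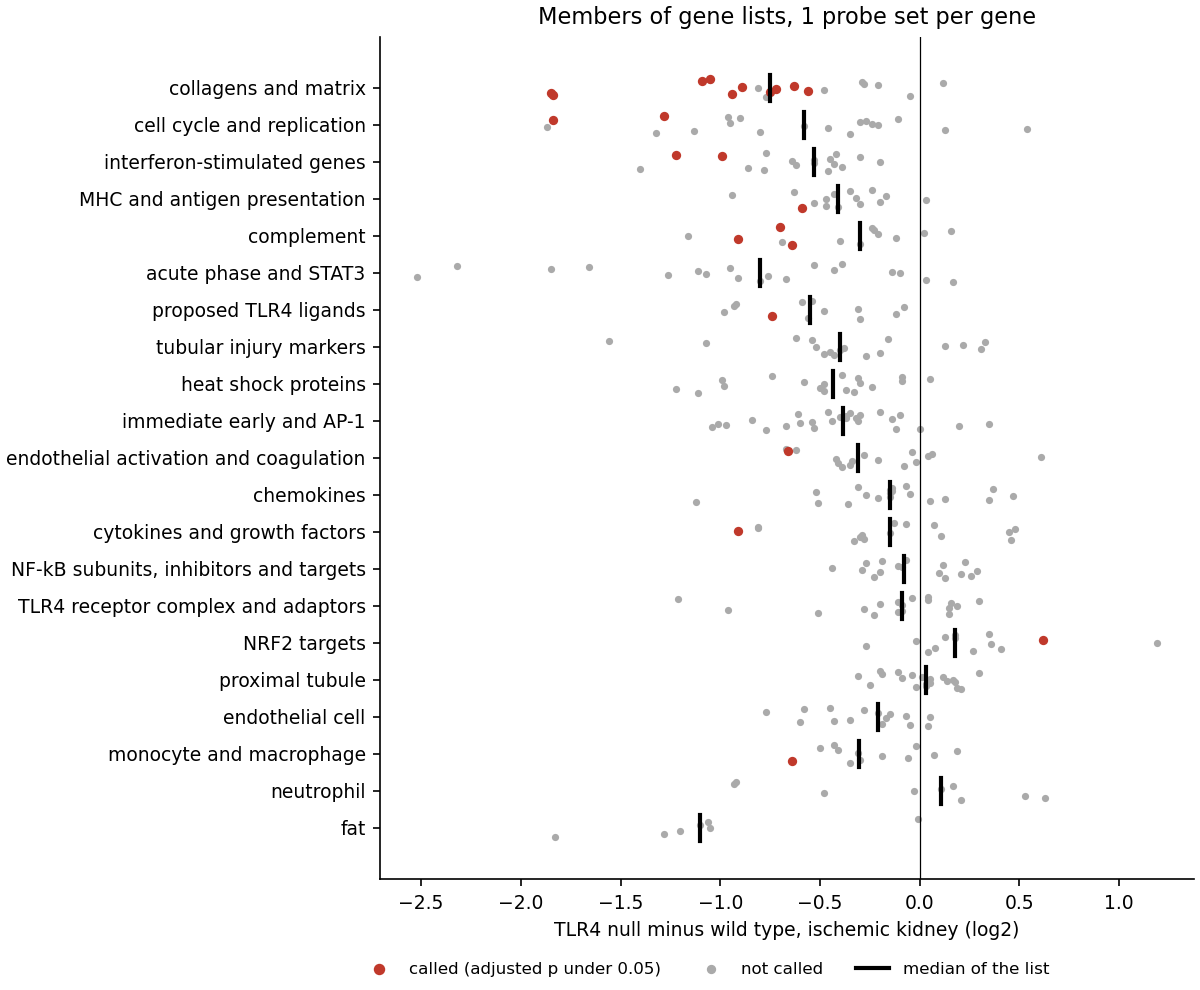
Log2 difference between TLR4 null and wild type ischemic kidneys (horizontal axis) for every measured member of 21 gene lists, at the brightest probe set of each gene. Red points passed the test, gray points did not and black bars are list medians, which are lowest for fat (-1.10), the acute phase (-0.80) and the matrix (-0.75).

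Of 17 measured markers of tubular damage 0 were called in ischemic kidneys, 13 had a lower mean and the median was -0.40. The mean log2 level of the list was 10.54 to 10.76 in the wild type kidneys and 10.09 to 10.48 in the TLR4 null kidneys, so the groups did not overlap. In sham kidneys all 17 means were lower in the mutants, with a median of -0.46 and list levels of 8.64 to 8.69 against 8.05 to 8.22, and 1 gene was called. Havcr1, the kidney injury molecule of the proximal tubule, read 127.8, 94.2 and 108.4 in wild type and 159.7, 325.9 and 46 in TLR4 null ischemic kidneys (0.31 ± 0.53, limma adjusted p = 0.905). The mutant kidneys lay on both sides of the wild type kidneys. Krt20 (0.13) did not pass either, and both are among the 4 genes of the list with a higher mean. Lcn2, the secreted iron-binding injury marker, read 3008, 3138 and 5090 against 1433, 2472 and 1451, a difference that did not pass in ischemic kidneys (-1.07 ± 0.25, limma adjusted p = 0.0815) although the groups were apart. In sham kidneys Lcn2 was lower in the mutants (-1.48, limma adjusted p = 0.0211).

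Clu, the chaperone clusterin that injured tubules release, was the 1 gene of 17 with a probe set that passed. It read 8552, 8328 and 8449 in wild type and 4779, 5685 and 6563 in TLR4 null ischemic kidneys on 1437689_x_at (-0.58 ± 0.10, limma adjusted p = 0.0267), and a second probe set gave -0.55, called in 7 and 8 of the 12 fits without 1 array. In sham kidneys the values were 3280, 3502 and 3329 against 3265, 2662 and 2826. On 1437689_x_at the ischemic minus sham differences were 1.32 in wild type and 0.95 in TLR4 null kidneys on the log2 scale. The interaction did not pass (limma adjusted p = 0.717). At the brightest of the 4 tested Clu probe sets the ischemic genotype difference of -0.40 did not pass (limma adjusted p = 0.0696), and the sham difference was -0.36. There the ischemic minus sham differences were nearly equal, 1.04 in wild type and 1.01 in TLR4 null kidneys. Markers of intact tubules did not pass: of 20 proximal tubule genes 0 were called (median 0.03), and of 18 genes of the loop, distal tubule and collecting duct 0 were called (median -0.02).

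Of 18 measured heat shock genes 0 were called, 17 had a lower mean and the median was -0.43. Hspa1a, the inducible 70 kDa class chaperone, read 11640, 12960 and 11894 in wild type and 6758, 2710 and 12724 in TLR4 null ischemic kidneys (-0.98 ± 0.37, limma adjusted p = 0.346). TLR4 null ischemic replicate 3 lay within the wild type range, and the other 2 mutant kidneys lay below it. Among the immediate early genes, Egr1 read 8788, 8989 and 9271 against 2868, 3426 and 8458 (-1.04 ± 0.28, limma adjusted p = 0.141). All 3 mutant kidneys lay below the wild type kidneys, replicate 3 only just. Fos read 5023, 7216 and 5253 against 2982, 1481 and 5666 (-0.97 ± 0.34, limma adjusted p = 0.3), with replicate 3 inside the wild type range. Of 26 immediate early genes 0 were called and 23 had a lower mean (median -0.39). Without TLR4 null ischemic replicate 3, 6 of the 18 heat shock genes and 6 of the 26 immediate early genes were called lower, with list medians of -0.60 and -0.57. All differences there rest on 2 mutant kidneys.

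The acute phase list had a median of -0.80, 17 of 19 lower means and 0 calls. Its largest members varied most within a genotype: the acute phase protease inhibitor Serpina3n, chosen like Hp after its values were seen, read 257.8, 12.8 and 431.2 in wild type and 23.9, 9.18 and 13.8 in TLR4 null ischemic kidneys (-2.32 ± 0.81, limma adjusted p = 0.297). Haptoglobin, Hp, read 1768, 167.8 and 2550 against 1059, 10.1 and 148.0 (-2.52 ± 1.05, limma adjusted p = 0.418). In both genes wild type ischemic replicate 2, the wild type kidney with the lowest fat score, was the lowest of its group. The part of fat tissue in these values was not tested. The transcription factor Stat3 was nearest to passing among the less variable members (-0.39 ± 0.09, limma adjusted p = 0.072) and was lower in sham kidneys (-0.47, limma adjusted p = 0.0479).

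Ghr, the growth hormone receptor, was picked after its values were seen and was called higher in the TLR4 null ischemic kidneys at 3 probe sets. The brightest read 6036, 5654 and 5048 in wild type and 7511, 8471 and 8194 in TLR4 null ischemic kidneys (0.53 ± 0.08, limma adjusted p = 0.0112), and the others gave 0.56 and 0.52. All mutant kidneys were above all wild type kidneys, while both genotypes were below their sham kidneys, which read 9321 to 10115 (wild type) and 10067 to 10504 (TLR4 null). Aadat, a mitochondrial aminotransferase of lysine and tryptophan breakdown, read 1978, 1977 and 1861 against 3072, 3271 and 2895 (0.66 ± 0.09, limma adjusted p = 0.00468). Its sham values were also higher than the ischemic ones, 3683 to 4534 (wild type) and 4642 to 4783 (TLR4 null). The lipoprotein genes Apob (0.87) and Apoh (0.92) were higher too, each at 1 of 2 tested probe sets. The other probe set read 0.23 for Apob and -0.44 for Apoh, and neither passed.

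Azgp1, a secreted zinc-binding glycoprotein linked to lipid mobilization, read 465.1, 585.6 and 430.1 in wild type and 1273, 1315 and 1417 in TLR4 null ischemic kidneys, a 2.67-fold difference (1.42 ± 0.21, limma adjusted p = 0.0112). It was higher by 1.51 in sham kidneys as well. Arf5, a small GTPase of vesicle traffic, read 261.9, 295.8 and 225.9 against 533.3, 531.8 and 509.5 (0.97 ± 0.12, limma adjusted p = 0.00247) and was higher by 0.85 in sham kidneys. The largest rise of a named gene was Erdr1, at 814.9, 650.4 and 821.0 against 2259, 4834 and 2988 (2.05 ± 0.25, limma adjusted p = 0.00247), with mutant kidneys spread widely but all above wild type. Also called higher at low signals were Dennd6b (1.84), Cep128 (1.54) and Smyd4 (1.39), in 2, 3 and 1 of the 12 fits without 1 array. Dennd6b read 119.8, 68.5 and 100.9 in the TLR4 null ischemic kidneys and 11.8 to 40.6 on the other 9 arrays, so it passed the filter on low signals through the group where it was high and had to differ. Its 2 other probe sets read 0.24 and -0.20. Nqo1, a quinone reductase induced by NRF2, was the 1 gene called of 13 NRF2 targets (0.62 ± 0.12, limma adjusted p = 0.0462, list median 0.18), in 3 of the 12 fits without 1 array. Hmox1, the heme-degrading enzyme, read 3170, 2364 and 2492 against 6461, 11250 and 3108 and did not pass (1.19 ± 0.52, limma adjusted p = 0.446).

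Several single genes of known function were among the largest falls. Ctse, an aspartic protease of the endosome, read 280.5, 395.2 and 280.2 in wild type and 66.1, 36 and 24.1 in TLR4 null ischemic kidneys (-2.60 ± 0.32, limma adjusted p = 0.00247). Its other tested probe set differed by -0.05 and did not pass (limma adjusted p = 0.978). Cyp27b1, which makes active vitamin D in the kidney, read 124.0, 207.7 and 157.2 against 14.5, 6.05 and 50.8 (-2.34 ± 0.36, limma adjusted p = 0.0112). With Cyp2d26 (-0.55) it made up the 2 calls among 21 cytochrome P450 genes, whose median was 0.16. Igf1, the growth factor downstream of growth hormone, read 128.5, 161.7 and 147.1 against 41.4, 26.1 and 56.7 (-1.54 ± 0.26, limma adjusted p = 0.0175), in 8 of the 12 fits without 1 array. Aplnr, the apelin receptor of vessels, gave -2.31 ± 0.46, and Bbox1, the last enzyme of carnitine synthesis, -1.37 ± 0.22, and they were called in 4 and 10 of those 12 fits. The transport protein gene Ttr was lower at 3 probe sets (-0.94, -1.15 and -1.19). The largest difference of all was at 1452426_x_at, a probe set with no gene name in the annotation, which read 2199, 3009 and 4020 in wild type and 235.8, 224.1 and 129.9 in TLR4 null ischemic kidneys (-3.87 ± 0.21, limma adjusted p = 4.66e-07), and -4.15 in sham kidneys.

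The sham kidneys gave a second measurement of the genotype difference in other animals. There 54 probe sets were called (0.178%), 43 lower (0.142%) and 11 higher (0.0363%). Of the 123 called in ischemic kidneys, 23 were called in sham kidneys too, all in the same direction, which is 18.7% of the ischemic calls and 42.6% of the sham calls. The sham difference had the same sign as the ischemic difference for 111 of the 123 (90.2%), against 54.6% of all tested probe sets. By direction, 94 of the 97 lower and 17 of the 26 higher probe sets had the same sign. The named genes called in both surgeries were Tlr4, Ctse, Mki67, Top2a, Ces1g, Ttr, Cyp2d26, Col1a2, Sparc, Fstl1, Col4a1, Col4a2, Col6a3, Tmsb10 and Pisd-ps3, which were lower, and Azgp1 and Arf5, which were higher. Sparc, for example, read 3341, 4058 and 3008 in wild type and 1962, 1834 and 1867 in TLR4 null sham kidneys (-0.86 ± 0.14, limma adjusted p = 0.0209).

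**Figure D4:**
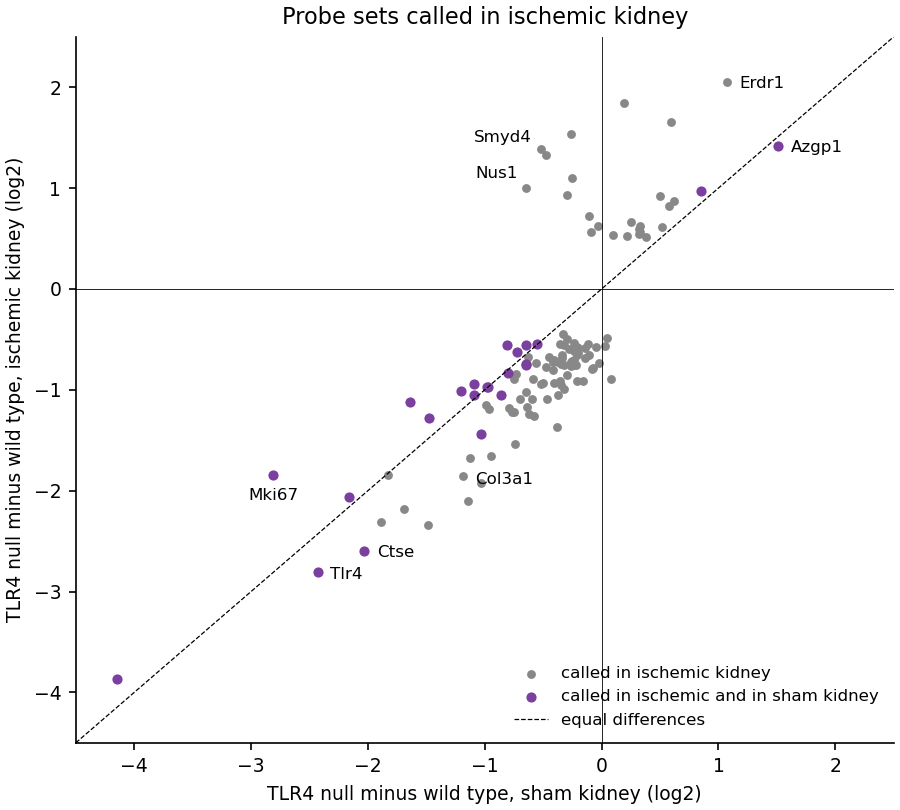
Log2 genotype difference in ischemic kidneys (vertical axis) against that in sham kidneys (horizontal axis) for the 123 probe sets called in ischemic kidneys. Most points lie in the quadrants of equal sign (111 of 123), and 109 have the larger size in ischemic kidneys, the surgery in which they were chosen.

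Whether the genotype difference itself changed with surgery was tested as an interaction. In limma 0 probe sets passed, the smallest adjusted p was 0.299, and 1892 had an unadjusted p under 0.05, of which 49 were among the 123. A gene called in ischemic and not in sham kidneys is therefore not shown to differ between the surgeries. The nearest to passing included Nus1, a subunit of the enzyme that makes dolichol. It read 474.4, 570.5 and 589.9 in wild type and 1263, 1434 and 733.4 in TLR4 null ischemic kidneys, and 1328, 1285 and 1601 against 827.2, 811.5 and 1034 in sham kidneys, so that the order of the genotypes turned at this probe set. The other 5 tested Nus1 probe sets had interactions of 0.03 to 0.28. Without TLR4 null ischemic replicate 3 the interaction was passed by 44 probe sets, 35 with a positive and 9 with a negative sign, and without TLR4 null ischemic replicate 1 by 1. Among the 44 were Nus1, Rab2a and Rpl27a with a positive and Jun with a negative sign.

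The comparison of probe sets of one gene limits several of the calls. Of the 20 genes called higher, 8 had 1 tested probe set and 12 had several. In those 12 a second probe set was called for 1, another had the same direction at an unadjusted p under 0.05 for 5, and neither held for 6, among them Dennd6b and Rtcb. Of the 70 called lower, 29 had 1 tested probe set. Of the other 41, a second was called for 10, another had the same direction at that level for 18, and neither held for 13, among them Col1a1, Ctse, Top2a and Xaf1.

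**Figure D5:**
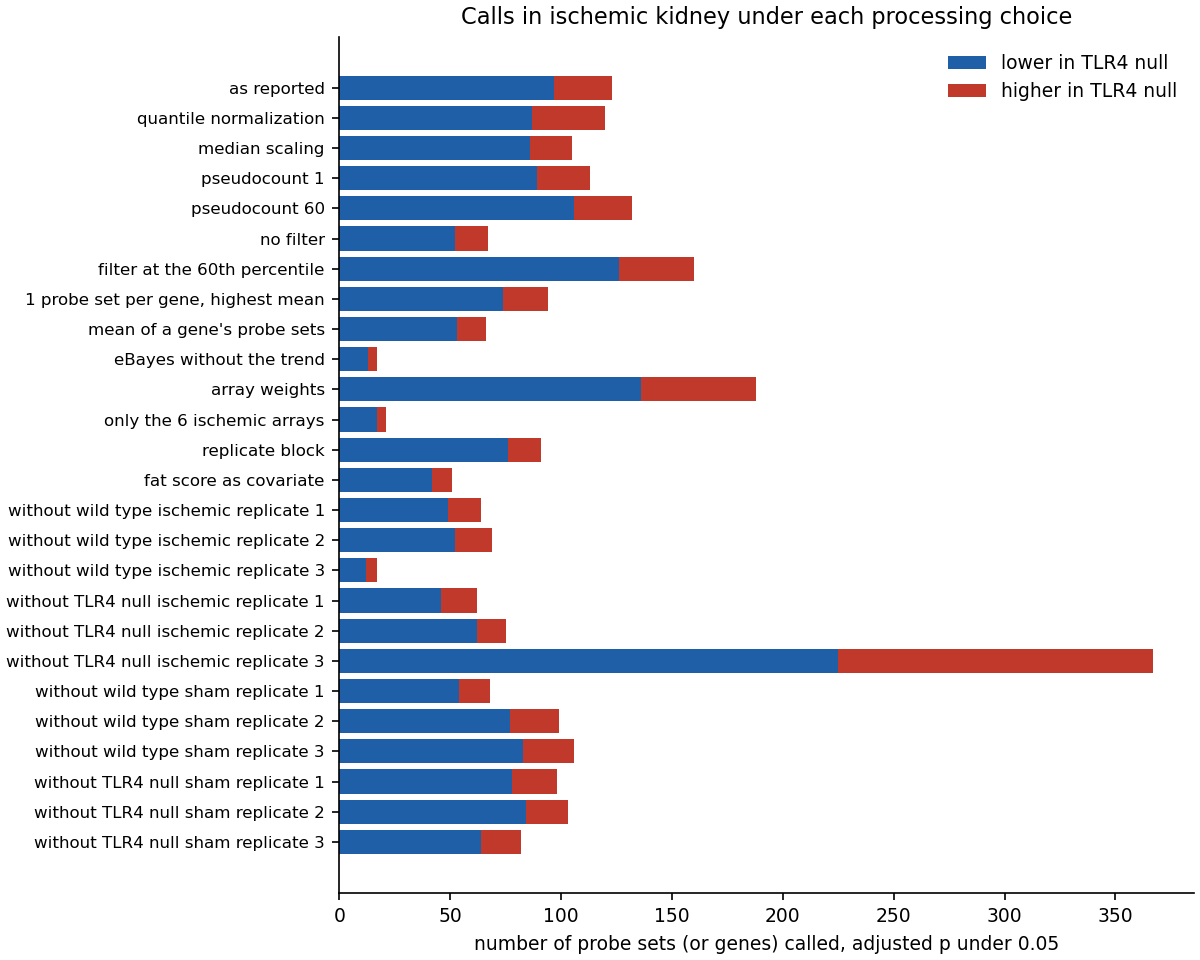
Number of probe sets or genes called between TLR4 null and wild type ischemic kidneys (horizontal axis, from 0) under each processing choice, split into lower (blue) and higher (red). The number was 123 as reported, 17 without wild type ischemic replicate 3 and 367 without TLR4 null ischemic replicate 3.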

How the data were processed

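RNA of 12 kidneys was read on Affymetrix-type probe sets, and the authors' deposited table gives 1 signal intensity per probe set and array. The submitters' processing notes name MAS5 for these intensities. Its version and scaling target were not given in the sources used here, while the mean of the middle 96% of signals was 250 on every array. Of 45101 probe sets, 64 controls were left out, and the 30326 above their array's 40th percentile on at least 3 arrays were tested. Values were taken as log2(signal + 15). One limma model (3.58.1, R 4.3.3, lmFit and eBayes with trend) held a mean for each of the 4 groups and all 12 arrays, with 8 residual degrees of freedom, and p-values were two-sided and adjusted by Benjamini-Hochberg over all tested probe sets. The method was tested on simulated data.

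Names came from GEO's platform annotation, which pairs 34945 probe sets with 1 gene, 932 with several and 9160 with none, and only the first kind were named. A list of 37 gene sets (609 genes, 517 measured) took each gene at its brightest probe set. The members, lists and tests were chosen with earlier results of these data known. Named genes were the 14 largest rises and falls, up to 4 per list by smallest p, up to 25 called in both surgeries, 5 with the smallest interaction p, 5 neighbors on each side of Tlr4 and a set of 22 inflammation and injury genes; cell markers and list members beyond these were added for context, and genes picked for their values are said to be. Array measures were compared with exact permutation tests. Promoter sequences are from RefSeq (GRCm38.p6). The number of arrays limits the precision. Alternatives covered scaling, pseudocount, filter, probe set summary, variance model, array weights, a replicate block, the 6 ischemic arrays alone and leaving out each array. Replicate numbers did not pair the ischemic samples (same-number correlations of deviations from -0.059 to 0.061).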

Additional observations from a re-analysis of the deposited data

Results flagged for a closer look

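The genotype difference had opposite signs in ischemic and sham kidneys, with the 3 arrays of each genotype apart in both, for Nus1, Prepl, Apoc3 and Rpl27a. Their interaction p-values were among the smallest of all tested probe sets, and a choice by small interaction p favors opposite signs. The share of all probe sets with this pattern is not given here. For Nus1 this holds at 1 of 6 tested probe sets, the other 5 having interactions of 0.03 to 0.28, and for Prepl at 1 of 3, the others having 0.37 and 0.26. Apoc3 and Rpl27a had 1 tested probe set each. The interaction of genotype with surgery was 1.65 for Nus1, 1.23 for Prepl, 0.99 for Apoc3, which encodes an apolipoprotein, and 1.46 for Rpl27a on the log2 scale, and none passed the test over all probe sets (limma adjusted p = 0.299 for each). Prepl read 223.5, 225.8 and 205.4 in wild type and 405.1, 558.0 and 348.0 in TLR4 null ischemic kidneys, and 406.6, 441.2 and 480.4 against 397.9, 300.3 and 379.1 in sham kidneys. Apoc3 read 321.1, 362.6 and 352.8 against 410.7, 470.2 and 381.5 in ischemic kidneys, and 926.4, 852.8 and 857.2 against 455.7, 532.1 and 598.5 in sham kidneys. Rpl27a, a ribosomal protein gene, read 716.6, 691.3 and 687.7 against 1497, 1660 and 839.5 in ischemic kidneys, and 1039, 1078 and 1394 against 795.3, 659.4 and 833.5 in sham kidneys. The values of Nus1 are given above.

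The control probe set for the 3 prime part of 18S ribosomal RNA, which no comparison above uses, had a mean signal of 2114 ± 635.6 (SD, n = 3) in the TLR4 null ischemic kidneys against 549.6 ± 21.4 in the wild type ischemic kidneys. All 3 mutant arrays were above all wild type arrays, and the exact permutation test gave p = 0.1, the smallest 3 against 3 can give. After adjustment over 11 array measures it was 0.55. The 5 prime 18S control averaged 229.9 in wild type and 236.4 in TLR4 null ischemic kidneys (exact permutation test, p = 0.9). The middle 18S control averaged 332.0 and 389.2 (exact permutation test, p = 0.2).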

How the results depend on the processing

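The number of probe sets called between genotypes in ischemic kidneys (123) became 67 without a filter, 66 when the probe sets of a gene were averaged, 17 for eBayes without the trend, 188 with array weights, 21 from the 6 ischemic arrays alone and 51 with the fat score as a covariate, which was added after the data were seen. Leaving out 1 array gave 17 to 367. In sham kidneys (54) the count was 28 without a filter, 9 without the trend, 199 with array weights and 9 to 103 without 1 array, the lowest without wild type sham replicate 2 and the highest without TLR4 null ischemic replicate 3. For the interaction (0) it was 0 to 44 without 1 array. A fit with the replicate number as a block called 91 in ischemic and 54 in sham kidneys and 0 for the interaction, although the numbers did not pair the samples. Every call tested kept its direction in the fits per probe set, which values that do not overlap fix in advance where 1 array is left out. Those still called numbered 104 of 123 after quantile normalization, 95 after median scaling, 79 with the block, 65 without a filter, 40 with the fat score, 20 from the 6 ischemic arrays and 15 without the trend. By gene at the brightest probe set, Pisd-ps3 turned to 0.18. Differences that never passed also turned: Cspg4 was -0.03 with its probe sets averaged, with the fat score Sele was -0.06 and Selp 0.02, and leaving out 1 array gave -0.03 to 0.13 for Sele, -0.16 to 0.13 for Selp, -0.39 to 0.01 for Cxcl1, -0.18 to 0.03 for Myd88, -0.27 to 0.97 for Havcr1, -0.08 to 0.42 for Krt20, -0.00 to 0.12 for Csf1r, -0.12 to 0.00 for Kdr and -0.17 to 0.27 for Mpo. The cause of these changes was not tested. With 3 arrays per group, differences at low signal are measured with wide errors.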
